A study of Mus musculus with 9 samples.

Results

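The miR-322, miR-503, miR-351 and miR-450 cluster is a run of microRNA (miRNA) precursors on the mouse X chromosome. Its 6 named 5p miRNAs are mmu-miR-322-5p, mmu-miR-503-5p, mmu-miR-351-5p, mmu-miR-542-5p, mmu-miR-450a-5p and mmu-miR-450b-5p, below without the prefix for mouse, and they were picked by name out of 1052 mature miRNAs in a deposited count table. Where a name had more than 1 row, the row with the most counts was used, which concerned only miR-450a-5p, whose 2 rows were identical. The cluster was put forward with earlier results of these counts known, among them the low level of miR-450b-5p in neurons, so that the levels of miR-450b-5p below are a description: no p-value is given for it, and nothing is read from its calls. Of the 6 members, 5 had enough counts to be tested, and miR-542-5p had 7 counts in all.

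The counts come from small RNA libraries of 3 cell populations of the E14.5 (embryonic day 14.5) lateral cortex of C57BL/6 mice, with 3 libraries each. The cells were sorted on reporter fluorescence after papain dissociation. The titles name the signals R and G, which the labels do not explain. The proliferating progenitors had neither signal, the differentiating progenitors had R without G, and the newborn neurons had G. All 9 libraries share strain, region and age. The labels do not say whether the libraries of a population came from separate embryos or litters, so p-values measure the spread between these libraries, which may be technical.

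A mature miRNA guides the silencing complex to messenger RNAs that pair with its seed, the bases near its 5′ end, and lowers their translation and stability. MiRNAs with the same seed can therefore act on overlapping sets of targets. miR-322 and miR-503 carry the start of the seed of the miR-15 and miR-16 family, known for targeting cyclins and other drivers of the cell cycle, and miR-351 carries the seed of miR-125, the vertebrate relative of lin-4. Precursors that lie close together on a strand are often cut from a single primary transcript, after which each mature strand can be processed and degraded at its own rate.

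The mature sequences show which members could share targets. They are given 5′ to 3′ as RefSeq lists them for GRCm38.p6, with the seed (bases 2 to 8) in capitals. The first 2 share a seed start, the third is the miR-125 relative, and the others have no seed in common with any tested miRNA.

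miR-322-5p: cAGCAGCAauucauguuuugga
miR-503-5p: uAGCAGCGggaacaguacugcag
miR-351-5p: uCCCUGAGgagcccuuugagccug
miR-450a-5p: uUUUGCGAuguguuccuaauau
miR-450b-5p: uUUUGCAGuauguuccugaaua
miR-542-5p: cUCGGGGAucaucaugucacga

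The relatives outside the cluster are shown for the same comparison of seeds. miR-15a-5p has the whole seed of miR-322-5p, and miR-125b-5p has that of miR-351-5p.

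miR-15a-5p: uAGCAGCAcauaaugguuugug
miR-125b-5p: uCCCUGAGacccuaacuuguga

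The seed of miR-503-5p differs from that of miR-322-5p in its last base, and no other mouse miRNA in the RefSeq list has it. miR-450a-5p and miR-450b-5p are alike along their length but not in the seed: they differ at 7 of 22 positions, the first of which is position 7, counted from the 5′ end. Their seeds are therefore different, and neither has another bearer in the RefSeq list.

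In GRCm38.p6, the patch level of the mm10 build named in the submitters' processing notes, the 7 precursors lie on the minus strand within 6353 bp. In the order of transcription they are Mir322 (chrX:53054255-53054349), Mir503 (chrX:53053984-53054054), Mir351 (chrX:53053255-53053353), Mir542 (chrX:53049403-53049487), Mir450-2 (chrX:53048299-53048367), Mir450-1 (chrX:53048154-53048244) and Mir450b (chrX:53047997-53048078). miR-450a is made from both Mir450-2 and Mir450-1. The first 3 precursors lie inside the RefSeq long noncoding RNA gene C430049B03Rik (chrX:53053112-53057190), and the other 4 lie downstream of it. GENCODE M21 gives C430049B03Rik a shorter span (chrX:53055046-53057190), and in that annotation none of the 7 precursors overlaps another gene. The 3 precursors of the miR-450 miRNAs are 54 and 75 bp apart, the closest neighbours in the cluster. Their sequences are printed because their mature strands gave the widest change between populations and one of the narrowest, with the mature strand in capitals.

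Mir450-2: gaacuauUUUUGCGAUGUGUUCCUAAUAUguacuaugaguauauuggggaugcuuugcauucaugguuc
Mir450-1: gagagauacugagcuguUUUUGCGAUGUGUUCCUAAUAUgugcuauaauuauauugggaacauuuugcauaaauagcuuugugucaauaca
Mir450b: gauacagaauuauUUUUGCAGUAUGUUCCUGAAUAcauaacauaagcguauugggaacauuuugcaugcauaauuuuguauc

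Library totals ran from 821155 to 3856484 counted miRNA reads. Levels are given in CPM (counts per 1e+06 counted reads), corrected by TMM factors (0.903 to 1.22). A mature miRNA is read whole, so CPM needs no correction for length, although ligation favours some ends over others and levels of different miRNAs are compared only loosely. A population was called different at an adjusted p under 0.05 in edgeR's quasi-likelihood test over 188 miRNAs. The labels of the populations were checked on the neuronal list, of which 4 miRNAs were tested. Between proliferating progenitors and neurons 3 of them rose and 1 fell, where 56.4% of all tested miRNAs were called and 26.6% called lower. Of the 2 tested miRNAs on the neural progenitor and cortex list, miR-92b-5p fell, with 358.1, 235.5 and 82.9 CPM. The other, miR-9-5p, was not called. miR-124-5p went from a mean of 57.7 CPM over 174.7 CPM in differentiating progenitors to 434.9 CPM in neurons, while miR-129-5p went the other way, with 689.3, 341.8 and 213.1 CPM. The summed markers of other cell types were highest in proliferating progenitors, and their values stand beside those of miR-450b-5p.

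The cluster took a small share of the counts, with a mean of 0.0786% ± 0.00684 in proliferating progenitors, 0.0653% ± 0.00432 in differentiating ones and 0.0563% ± 0.0122 in neurons (SD, n = 3). By library it held 0.0792%, 0.0715% and 0.0851% of the counts of the 3 proliferating progenitor libraries, 0.069%, 0.0605% and 0.0663% in differentiating ones and 0.0496%, 0.0489% and 0.0705% in neurons. The third neuron library lay between the 2 progenitor populations, while the other 2 neuron libraries lay below all progenitor libraries. These shares include miR-450b-5p, which made up a mean of 15.4%, 6.75% and 1.72% of the counts of the cluster in the same order of populations. Their fall is therefore in part that of miR-450b-5p, known in advance. miR-351-5p was the most counted member, with 4152 counts over the 9 libraries or 47.6% of the cluster, followed by miR-450a-5p with 1745 counts, miR-503-5p with 1526, miR-322-5p with 663 and miR-450b-5p with 634. In bulk counts such as these, fewer cells of a type and less RNA per cell cannot be told apart.

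**Figure D1:**
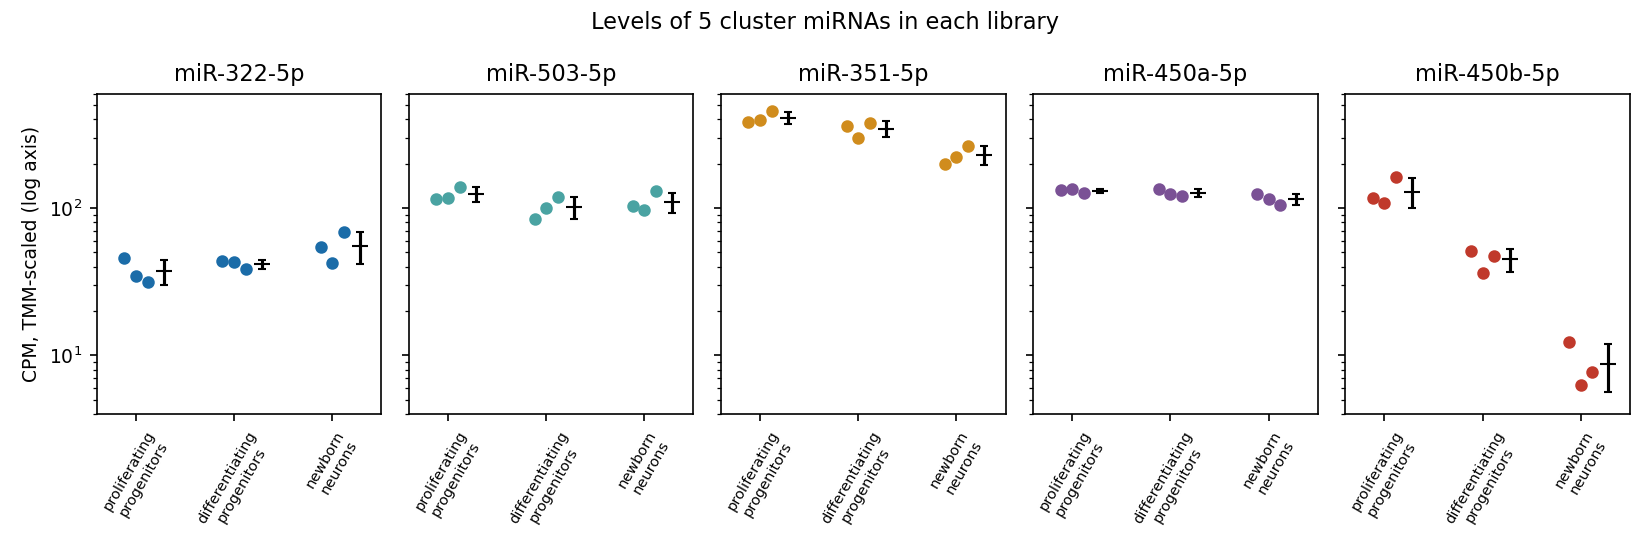
Level of each tested member in CPM (log axis) in the 9 libraries, by population, with the mean and SD (n = 3). miR-450b-5p runs from 108.4 to 163.7 CPM in proliferating progenitors to 6.33 to 12.4 CPM in neurons, while miR-450a-5p stays between 105.3 and 135.7 CPM in all 9 libraries.

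miR-322-5p, the first of the pair with the AGCAGC seed start, was the one tested member whose mean was highest in neurons. Its libraries gave 45.5, 34.8 and 31.4 CPM in proliferating progenitors, 43.6, 43.2 and 38.5 CPM in differentiating ones and 54.3, 42.2 and 69.2 CPM in neurons. The ranges overlapped in each comparison. The log2 difference between neurons and proliferating progenitors was 0.54 (SE 0.24, 95% interval 0.02 to 1.05), which missed the threshold (edgeR, Benjamini-Hochberg adjusted p = 0.0692).

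miR-503-5p, the other AGCAGC member, did not pass the test in any comparison. It was counted at 114.5, 117.6 and 140.1 CPM in proliferating progenitors, 85.0, 100.4 and 118.9 CPM in differentiating ones and 103.0, 97.1 and 129.9 CPM in neurons. All 3 ranges overlapped. The log2 difference of neurons from proliferating progenitors was -0.18, with a 95% interval of -0.59 to 0.24 (edgeR, Benjamini-Hochberg adjusted p = 0.486), so that differences of up to -0.59 are compatible with these libraries.

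The wider AGCAGC family gives the setting for these 2 members. Together they held 9.54%, 9.63% and 10.1% of the counts of the family in proliferating progenitors, 8.63%, 9.44% and 12.5% in differentiating ones and 12.5%, 15.8% and 13.9% in neurons. Every neuron library lay above all progenitor libraries, although the highest differentiating and the lowest neuron library were almost level. Of the 6 relatives counted in the family (miR-15a, miR-15b, miR-16, miR-195a and miR-497a, 5p, and miR-195b), 4 were tested and miR-195b was at 0 in all 9 libraries. miR-6353 and miR-6419, which share the seed in the RefSeq list, were at 0 in all libraries too. None of the 4 was called between the progenitor populations, where 16% of all tested miRNAs were called, and 0 of the 4 had an unadjusted edgeR p under 0.05. In neurons 2 of the 4 were lower than in differentiating progenitors, against 22.3% of all tested miRNAs, and 2 were lower than in proliferating progenitors, against 26.6%. These were miR-15a-5p and miR-15b-5p, which fell by 0.60 (SE 0.21) and 1.07 (SE 0.23) on the log2 scale between proliferating progenitors and neurons (edgeR, Benjamini-Hochberg adjusted p = 0.0215 and 0.000766). Neither miR-322-5p nor miR-503-5p was called lower there.

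miR-351-5p, the miR-125 relative, fell between the progenitors and the neurons. It stood at 385.2, 394.7 and 453.1 CPM in proliferating progenitors, 360.7, 298.7 and 378.1 CPM in differentiating ones and 198.0, 223.8 and 264.4 CPM in neurons. No 2 populations overlapped in their libraries after TMM scaling. Without the TMM factors the libraries overlapped at both steps. Differentiating replicate 1 was then at 367.5 CPM against 356.4 CPM in proliferating replicate 2. Neuron replicate 3 was at 322.3 CPM against 299.5 CPM in differentiating replicate 2. Of all tested miRNAs, 18.6% at the first step, 22.3% at the second and 31.9% from end to end were lower without overlap. The differentiating progenitors were lower than the proliferating ones by a log2 value whose interval includes 0 (-0.25, SE 0.17, 95% interval -0.60 to 0.10, edgeR, Benjamini-Hochberg adjusted p = 0.383). From differentiating progenitors to neurons the fall was 1.52-fold (log2 -0.60, SE 0.17, edgeR, Benjamini-Hochberg adjusted p = 0.00685). With library totals that leave out miR-9-5p, the most abundant miRNA, that step was -0.42 and missed the threshold (edgeR, Benjamini-Hochberg adjusted p = 0.0879). Over both steps the fall was 1.8-fold (log2 -0.85, SE 0.17, edgeR, Benjamini-Hochberg adjusted p = 0.000334).

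The 2 other bearers of the CCCUGAG seed in the table, miR-125a-5p and miR-125b-5p, are far more abundant. Their mean levels were 2980, 3453 and 3730 CPM for miR-125a-5p and 12580, 12220 and 11400 CPM for miR-125b-5p in proliferating progenitors, differentiating progenitors and neurons. Neither was called in any comparison (edgeR, Benjamini-Hochberg adjusted p between 0.0553 and 0.840). As a share of all counts with this seed, miR-351-5p held 2.49%, 2.22% and 3.10% in proliferating progenitors, 2.54%, 1.83% and 2.15% in differentiating ones and 1.29%, 1.42% and 1.76% in neurons. Each neuron library was below every progenitor library. The log2 ratio of miR-351-5p to both miR-125 miRNAs was -5.24 ± 0.25 (SD, n = 3), -5.50 ± 0.24 and -6.06 ± 0.24 in the same order, and the 3 populations differed (exact permutation test of the 3 labels, p = 0.0143). Without proliferating replicate 3, neuron replicate 1 or neuron replicate 2 the exact permutation p was 0.05, 0.0536 and 0.05, with a difference between neurons and proliferating progenitors of -0.68, -0.72 and -0.79 against -0.82 in all libraries.

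miR-450a-5p kept the narrowest fold range of the tested members. Its libraries gave 132.7, 135.0 and 127.0 CPM in proliferating progenitors, 135.7, 125.1 and 121.1 CPM in differentiating ones and 124.6, 115.1 and 105.3 CPM in neurons. Neurons were below proliferating progenitors without overlap after TMM scaling, as were 31.9% of all tested miRNAs, but the step was small. Without the TMM factors they overlapped, with 128.4 CPM in neuron replicate 3 and 118.1 CPM in proliferating replicate 3. The log2 difference between them was -0.19, with a 95% interval of -0.55 to 0.17 (edgeR, Benjamini-Hochberg adjusted p = 0.364).

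miR-450b-5p, read from the precursor next to those of miR-450a, showed the widest fold range of the tested members. It was counted 154, 106 and 125 times in proliferating progenitors, 72, 41 and 66 times in differentiating ones and 48, 12 and 10 times in neurons. In CPM these are 116.8, 108.4 and 163.7, then 51.4, 36.1 and 47.0, then 12.4, 6.33 and 7.69. No population overlapped another. The edgeR fit put miR-450b-5p 2.86-fold lower in differentiating than in proliferating progenitors (log2 -1.52, SE 0.25). In neurons it was 4.79-fold lower than in differentiating progenitors (log2 -2.26, SE 0.29) and 13.7-fold lower than in proliferating progenitors (log2 -3.77, SE 0.29).

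Summed over each list, markers of other cell types were also highest in the double-negative population in which miR-450b-5p was highest. The 2 erythroid markers of the 3 listed that the table holds summed to 260.6 to 353.8 CPM in proliferating progenitors, 0.881 to 2.86 CPM in differentiating ones and 0 to 2.31 CPM in neurons. The 6 mural or mesenchymal markers of 9 listed, of which miR-214-5p was at 0 in all libraries, summed to 439.1 to 580.1 CPM, 40.0 to 44.9 CPM and 19.2 to 36.4 CPM. The 5 haematopoietic markers of 7 listed gave 47.1 to 60.3 CPM, 20.7 to 37.0 CPM and 8.44 to 9.01 CPM, and the single endothelial marker in the table, of 2 listed, gave 18.4 to 26.2 CPM, 11.4 to 12.3 CPM and 5.28 to 12.3 CPM. Of the 7 tested markers on these 4 lists, 4 fell between the progenitor populations, against 7.98% of all tested miRNAs called lower. Between differentiating progenitors and neurons 2 fell, against 22.3%, and over both steps 7, against 26.6%. Those at the second step were the haematopoietic miR-146a-5p, at 7.10, 14.9 and 1.12 CPM and thus highest in differentiating progenitors, and miR-142a-5p, at 3, 1 and 1 counts in differentiating progenitors and 0 in every neuron library (edgeR, Benjamini-Hochberg adjusted p = 1.8e-05 and 0.0064). miR-143-3p, the most abundant mural marker, stood at 518.1, 38.4 and 26.2 CPM and was not called at the second step (edgeR, Benjamini-Hochberg adjusted p = 0.190). The part of these cell types in the levels of the cluster was not tested.

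miR-542-5p was close to absent from the counts. It was counted 0, 1 and 0 times in proliferating progenitors, 1, 0 and 0 times in differentiating ones and 2, 1 and 2 times in neurons. Every library was below 3 counts, the number a count of 0 allows, which is 0.778 to 3.65 CPM by library. Summed over the libraries, its level was 0.310 CPM (exact Poisson 95% interval 0.00784 to 1.73) in proliferating progenitors and 0.735 CPM (0.239 to 1.72) in neurons, so no difference was detectable at this depth. These intervals cover counting error only. The 3p arms of the 7 precursors were not analysed here.

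The number of members called is read against all 188 tested miRNAs. Of the 4 tested members other than miR-450b-5p, 0 were called between the progenitor populations, against 16% of all tested miRNAs (7.98% called lower). In that comparison 0 of the 4 had an unadjusted edgeR p under 0.05, and 0 were called by DESeq2. Between differentiating progenitors and neurons miR-351-5p was called, or 1 of 4, against 46.3% (22.3% called lower), and between proliferating progenitors and neurons again miR-351-5p alone, against 56.4% (26.6% called lower). In the joint test of the 3 populations it was 1 of 4, against 58.5%. The fit also placed miR-450b-5p under the threshold in each comparison. Since miR-450b-5p was known in advance, it is left out of these counts. The median log2 difference of the 5 tested members was -0.25, -0.14 and -0.19 at the 2 steps and from end to end. Over all tested miRNAs it was 0.08, -0.06 and -0.05. The medians of the members include miR-450b-5p, known in advance to be low in neurons, so nothing is read from them.

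**Figure D2:**
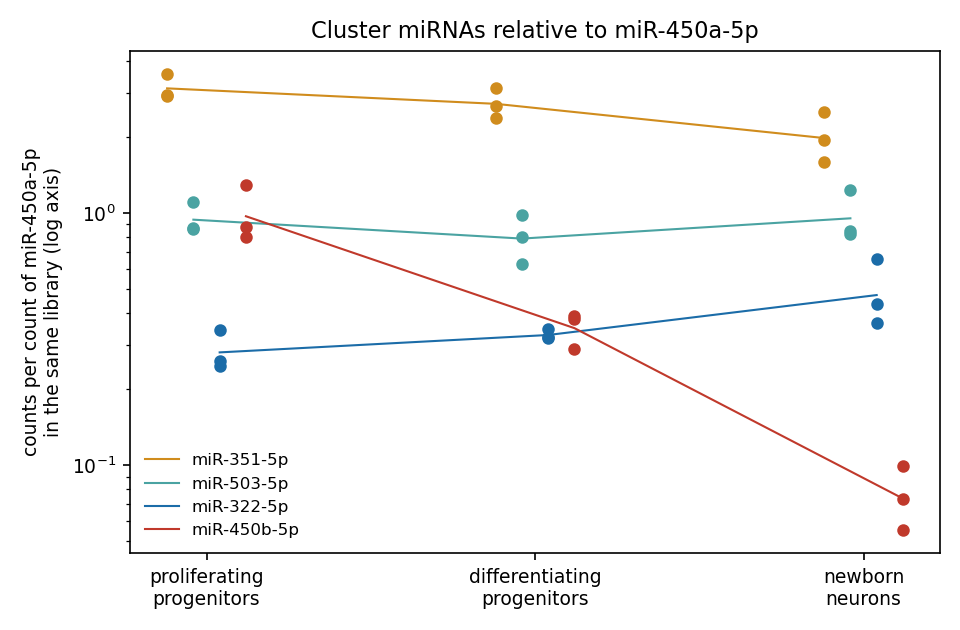
Counts of 4 members per count of miR-450a-5p in the same library (log axis), by population; points are the 9 libraries and lines join the geometric means of the populations. The ratio of miR-450b-5p goes from 0.803 to 1.29 in proliferating progenitors to 0.0551 to 0.0992 in neurons, while that of miR-322-5p goes from 0.247 to 0.343 to 0.367 to 0.657.

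Ratios of 2 members within a library ask whether the members keep their proportions, without any scaling between libraries. All 10 pairs of tested members were compared, and p-values of exact permutation tests of the 3 labels were adjusted by Benjamini-Hochberg over the 10. Since the outcome of the 4 pairs with miR-450b-5p was known, an adjustment over the other 6 pairs alone was added after the data were seen. Among these 6 pairs, 2 passed under both adjustments. Neurons and proliferating progenitors did not overlap in 5 of these 6 pairs, although 3 libraries against 3 cannot go below an exact p of 0.1. The 6 pairs are made from only 4 miRNAs. The share of such pairs among all tested miRNAs was not measured, so nothing is read from this count.

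miR-322-5p gained on miR-351-5p, its neighbour within 1 kb. There were 0.118, 0.0881 and 0.0694 counts of miR-322-5p per count of miR-351-5p in proliferating progenitors, 0.121, 0.145 and 0.102 in differentiating ones and 0.274, 0.189 and 0.262 in neurons. Each neuron library exceeded every progenitor library. The log2 ratio was 1.40 (SE 0.27) higher in neurons than in proliferating progenitors (exact permutation test of the 3 labels, p = 0.00714, adjusted p = 0.0143 over the 10 pairs and 0.0321 over the 6). Adjusted over the 6 pairs, it passed in 8 of the 13 alternatives run (exact permutation adjusted p from 0.0321 to 0.1). It was lost without proliferating replicate 2 or 3 and without differentiating replicate 1 or 2. It was also lost with the replicate numbers as blocks, where its exact permutation p of 0.0278 was the smallest that the blocked test allows. The blocked test could therefore not decide, since over 6 pairs that p passes only if most pairs reach it. The difference stayed between 1.22 and 1.59 throughout.

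miR-322-5p also gained on miR-450a-5p, at the far end of the cluster, but less firmly. The ratios were 0.343, 0.258 and 0.247 in proliferating progenitors, 0.321, 0.345 and 0.318 in differentiating ones and 0.436, 0.367 and 0.657 in neurons. The log2 ratio was 0.74 (SE 0.29) higher in neurons than in proliferating progenitors (exact permutation test, adjusted p = 0.0179 over the 10 pairs and 0.0321 over the 6). Adjusted over the 6 pairs, it passed in 5 of the 13 alternatives (exact permutation adjusted p from 0.0321 to 0.118). It was lost without any single progenitor replicate, without neuron replicate 3, where the difference was 0.51, and with the replicate numbers as blocks.

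The other 4 pairs did not pass under either adjustment, although some did so in single alternatives. miR-503-5p against miR-351-5p gave 0.297, 0.298 and 0.309 in proliferating progenitors, 0.236, 0.336 and 0.315 in differentiating ones and 0.520, 0.434 and 0.491 in neurons, a log2 difference of 0.67 (SE 0.08) between neurons and proliferating progenitors (exact permutation test, adjusted p = 0.0510 over the 10 pairs). Without differentiating replicate 1, 2 or 3 that p was 0.00893, 0.0298 and 0.0417, and adjusted over the 6 pairs only the first passed (exact permutation adjusted p = 0.0214). miR-322-5p against miR-503-5p differed by 0.73 (SE 0.25, exact permutation adjusted p = 0.0675) and miR-351-5p against miR-450a-5p by -0.65 (SE 0.21, exact permutation adjusted p = 0.0580). With the replicate numbers as blocks both passed over the 10 pairs (exact permutation adjusted p = 0.0397 each) and neither over the 6. Both reached the smallest exact permutation p that the blocked test allows, 0.0278. Without neuron replicate 3 the second passed under both adjustments (difference -0.82, exact permutation adjusted p = 0.0179 and 0.0321). miR-503-5p and miR-450a-5p kept the closest proportions, with a difference of 0.02 (SE 0.22, exact permutation adjusted p = 0.493).

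The pairs with miR-450b-5p are a description. Per count of miR-450a-5p there were 0.880, 0.803 and 1.29 counts of miR-450b-5p in proliferating progenitors, 0.379, 0.289 and 0.388 in differentiating ones and 0.0992, 0.0551 and 0.0730 in neurons. The 2 miRNAs were thus near parity in the first population and about 14.0 to 1 in the last (mean ratio of miR-450a-5p to miR-450b-5p 1.05 ± 0.245, 2.89 ± 0.495 and 14.0 ± 4.05, SD, n = 3). miR-450b-5p made up 15.4% ± 2.18 of the counts of the cluster in proliferating progenitors, 6.75% ± 0.808 in differentiating ones and 1.72% ± 0.687 in neurons (SD, n = 3).

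**Figure D3:**
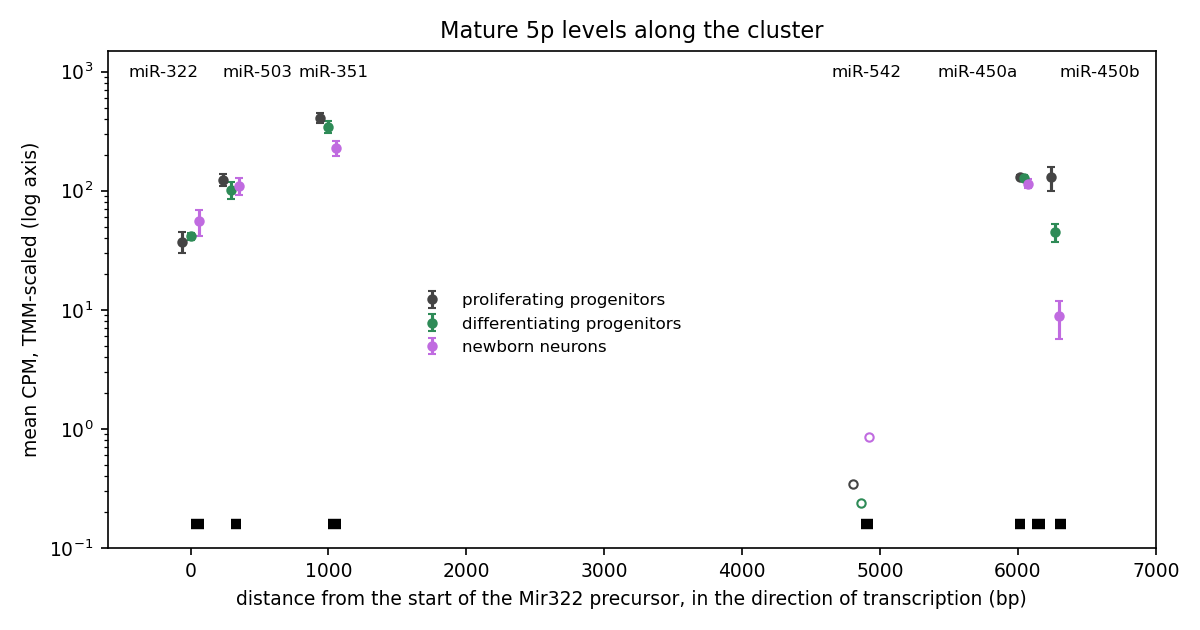
Mean CPM (log axis) of each member by population against the distance of its precursor from the start of Mir322 in bp, with SD (n = 3) and the precursors drawn to scale as black bars. Distance runs in the direction of transcription. Points of the 3 populations are offset sideways for visibility, miR-450a-5p is placed between its 2 precursors, and miR-542-5p is drawn with open symbols and no error because it had 7 counts. miR-450b-5p at the end of the cluster is the lowest of the tested members in neurons.

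How far apart neighbours stand was also measured for other miRNAs, a comparison added after the data were seen. Of the tested miRNAs, 163 had a RefSeq position, and 96 pairs of them, from 74 miRNAs, lay within 10 kb on the same strand. For each pair the log2 difference between neurons and proliferating progenitors was subtracted from that of its neighbour. The median size of the result was 0.44 for pairs outside the cluster. The 4 pairs with miR-450b-5p ranked 1, 3, 4 and 9 of 96, with sizes of 4.31 (with miR-322-5p), 3.60 (with miR-503-5p), 3.58 (with miR-450a-5p, 162 bp away) and 2.93 (with miR-351-5p). These 4 ranks are a description: all 4 pairs use the same log2 difference of miR-450b-5p, whose low level in neurons was known in advance. Rank 2 was the pair of miR-24-2-5p and miR-27a-5p with 4.06, and ranks 5 to 7 were miR-92a-1-5p with miR-18a-5p, miR-20a-5p and miR-17-5p. Wide gaps between neighbours were thus not limited to the cluster, although ranks 5 to 7 share the log2 difference of miR-92a-1-5p. In neurons miR-27a-5p and miR-92a-1-5p had means of only 0.524 and 1.30 CPM, where 3 counts are 0.778 to 2.81 CPM by library. miR-322-5p with miR-351-5p ranked 13, at 1.39.

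**Figure D4:**
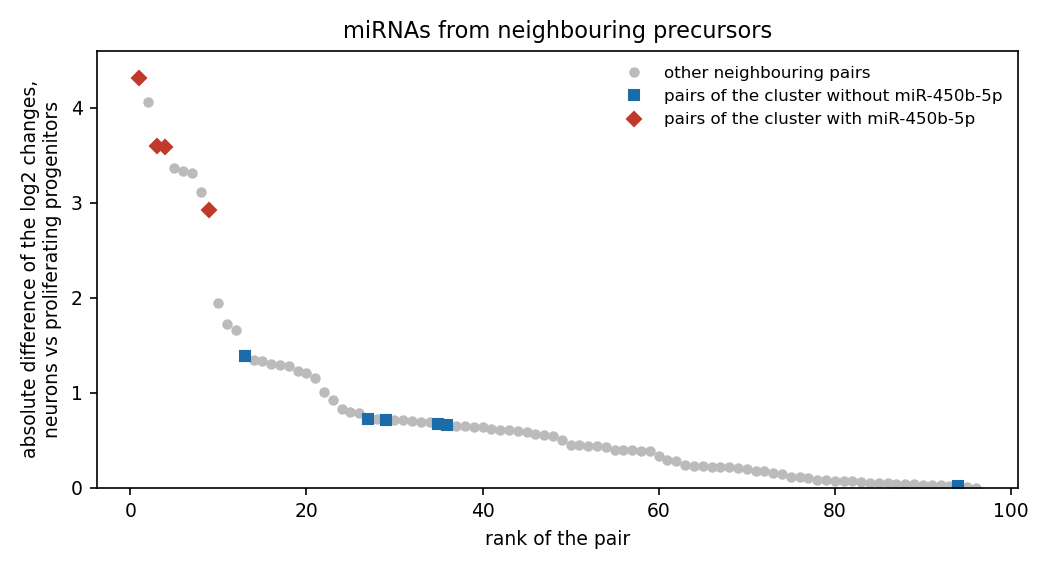
Absolute difference between the log2 changes (neurons against proliferating progenitors) of the 2 miRNAs of a pair, against the rank of the pair, for the 96 pairs of tested miRNAs within 10 kb on a strand. Red diamonds are the 4 cluster pairs with miR-450b-5p, all among the 9 widest, a description because its low level in neurons was known in advance. Blue squares are the other 6 cluster pairs and grey circles all other pairs.

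The miRNAs whose levels over the 3 populations were most like each member were named by a fixed rule, the root mean square difference of the population means of log2 CPM after centring. For miR-322-5p they were miR-877-5p (0.0162), miR-194-5p (0.0232) and miR-218-5p (0.0542), the last a neuronal miRNA. For miR-351-5p they were miR-20b-5p (0.0335), miR-149-5p (0.0628) and miR-374b-5p (0.0634), and for miR-450a-5p miR-106b-5p (0.0104), miR-93-5p (0.0129) and miR-21a-5p (0.0220). For miR-503-5p they were miR-339-5p (0.0276), miR-335-5p (0.0538) and miR-324-5p (0.0651). Each measure rests on 3 population means, and the other 187 tested miRNAs were searched. For miR-450b-5p the nearest was miR-92a-1-5p (0.229), at 18.6, 9.36 and 1.30 CPM, followed by miR-148a-5p (0.504) and miR-27a-5p (0.594). Other members of the cluster were not the nearest for any member. miR-450a-5p ranked 14 of 187 for miR-503-5p, and miR-351-5p, the cluster member most like miR-450b-5p, ranked 29.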

How the data were processed

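Per the labels' protocols, total RNA of the sorted cells went into small RNA libraries with the NEBNext kit, sequenced on an Illumina HiSeq. The authors deposited unnormalised read counts as 1 table of 1433 rows, with a column for each library. The submitters' processing notes name bcl2fastq 1.8.2, DESeq2 and mm10 without their roles, and the aligner, counter and miRNA release are not given in the sources used here. The 222 rows with a running number only were left out. Names made from several precursors had a row each, mostly with the same reads, so the largest row per name was kept, and names of at least 50 counts that differed by at most 2% were merged (7 groups), which left 1052 miRNAs, 560 with a count. Totals of these rows are the library sizes, and sequencing depth is unknown.

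edgeR 4.0.16 in R 4.3.3 was used with filterByExpr (188 kept), TMM, estimateDisp, glmQLFit and glmQLFTest, all 9 libraries in 1 fit with no covariate (common biological coefficient of variation 0.161), and Benjamini-Hochberg adjustment over the 188. The fit was also run on simulated counts of 188 miRNAs with known changes, and nothing is read from that run here. Ratios of members used counts with 0.5 added and exact permutation of the 3 labels (1680 arrangements, smallest p 0.00357). The miRNAs named are the 6 members, their seed relatives and the 3 most alike by a fixed measure. miR-497b, first listed with the AGCAGC relatives, was dropped because its RefSeq seed differs. The members and lists were chosen with earlier results of these data known. Alternatives were DESeq2 1.42.0, other scalings, no filter, all rows, the replicate number as a block and leaving out each library. Replicate numbers are shared in the titles, which do not say what a number marks. The deviations of same-numbered libraries from their population means correlated at 0.11 to 0.228 between differentiating progenitors and neurons, against -0.22 to 0.11 for different numbers. Between the progenitor populations they correlated at 0.00247 to 0.243, against -0.251 to 0.0432. Whether the numbers mark pairs was therefore not settled. The block changed no call of a member in any comparison.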

Additional observations from a re-analysis of the deposited data

How the results depend on the processing

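Of the values of single members and pairs under the alternatives, 371 kept their side of the threshold, 12 passed it newly and 8 lost it. They include miR-450b-5p, known in advance. It kept its side in 17 of 17 alternatives of each comparison and in 13 of 13 of each of its pairs. These values are among the 371, and nothing is read from them. Pairs were mostly adjusted over 10 here. Adjusted over the 6, miR-322-5p passed in 8 of 13 alternatives against miR-351-5p and in 5 of 13 against miR-450a-5p. Of the counts of calls, shares and the ratio to miR-125, 106 stayed within 1.5 times, 1 SD or their side of the threshold, 7 were weaker and 6 moved. No called value changed sign. Uncalled differences of miR-450a-5p changed sign in 2 alternatives at the first step and 1 at the second, and that of miR-503-5p in 1 at the second. With library totals taken without miR-9-5p, which holds most counts, 1 member (miR-450b-5p) instead of 2 was called between differentiating progenitors and neurons. There miR-351-5p stood at log2 -0.42 (edgeR, Benjamini-Hochberg adjusted p = 0.0879). The share of the cluster was then 0.241%, 0.181% and 0.161% in proliferating progenitors, differentiating progenitors and neurons. Without miR-16-5p, miR-322-5p and miR-503-5p held 25.1%, 27.6% and 40.9% of the AGCAGC counts. Over the leave-one-out fits, 1 to 2 pairs without miR-450b-5p passed when adjusted over 10, and the log2 difference of miR-351-5p against miR-125 was -0.95 to -0.68. miR-351-5p was called between proliferating progenitors and neurons in 17 of 17 alternatives, and miR-322-5p in 5 of 17 (edgeR, Benjamini-Hochberg adjusted p from 0.0140, without neuron replicate 2, to 0.234). Over all miRNAs the calls between the progenitor populations were 30, but 68 with all rows and 18 without proliferating replicate 1.

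Between proliferating progenitors and neurons the deviations of same-numbered libraries correlated at -0.0765 to -0.0591, against 0.000674 to 0.0748 for different numbers. These small values do not settle whether the numbers mark pairs. Between the progenitor populations same numbers gave 0.00247 to 0.243 and different numbers -0.251 to 0.0432, so that pairing was not settled there either. With the replicate block the members called, miR-450b-5p included, were 1, 2 and 2, and 2 in the joint test, as without it. Of the 6 pairs, 3 passed instead of 2 when adjusted over 10, and the difference of miR-351-5p against miR-125 was -0.82 (exact permutation p = 0.0556). The causes of these shifts were not tested. The depth limits miR-542-5p, and miR-450b-5p in neurons rests on 10 to 48 counts per library.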
